A study of Mus musculus with 5 samples.

Results

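The 234 mouse genes described here are the protein-coding genes whose symbol is Zfp followed only by a number below 700, without Zfp24, Zfp488 and Zfp536, in the GENCODE M21 basic annotation of the mm10 genome. The rule uses the symbol and no measured value, and it was applied to 21668 protein-coding genes on chromosomes 1 to 19 and X. Each member was asked for a peak of ZFP24 close to a start of transcription. Chromatin immunoprecipitation sequencing (ChIP-seq) with an antibody against ZNF24 had mapped ZFP24, a zinc finger transcription factor also named ZFP191, in brain cells of C57BL/6 mice at postnatal day 7. The libraries came from wild-type oligodendrocytes (OLG), Zfp191-null OLG, wild-type oligodendrocyte progenitors (OPC), Zfp191-null OPC and an input of chromatin pooled from both genotypes and both cell types, with 1 library each. Progenitors were isolated by immunopanning, and OLG were such progenitors after 5 days of culture in medium that lacked PDGF and held triiodothyronine at 40 ng/ml. The null libraries and the input were the controls.

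The values were 2 deposited lists of peak positions, with 1752 peaks of 221 bp for OLG and 4643 peaks of 209 bp for OPC. The labels attach each list to the wild-type and the null library of its cell type, and how the null library and the input entered the calling is not stated there. With 1 list per cell type and no score or tag count, library depth is unknown, no difference could be set against a spread between replicates, and no test was made. The exact (Clopper-Pearson) 95% intervals below cover counting error over genes or peaks only. A longer list reaches more genes, so a count in OLG and a count in OPC were each read against all protein-coding genes in the same list and not against each other. Expression was not measured, so the cell type labels could not be checked against marker genes.

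Most proteins with a Zfp number are C2H2 zinc finger proteins, in which repeated fingers, each folded around a zinc ion by a pair of cysteines and a pair of histidines, read DNA bases in a row. Many of them also carry a Krüppel-associated box (KRAB), which recruits the co-repressor TRIM28 and through it histone methyltransferases and heterochromatin proteins, and a well known task of these KRAB proteins is to silence transposable elements. Their genes arose by repeated local duplication and often stand in rows along a chromosome. The symbol does not make a protein a C2H2 factor in every case, and 6 of the 234 proteins held no match to the finger pattern searched, among them Zfp36, known as tristetraprolin, an RNA-binding protein with another type of finger. The median was 10 fingers per protein, with a range of 0 to 37, and 108 proteins (46.2%) held a match to a KRAB pattern.

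In rows built from members alone, the row with the most members, 13, lay on chromosome 7. Of these, 4 had an OPC peak centre within 1 kb of a start. Other Zfp genes that stand between members were left out of the rows. The peaks of 3 of the 4, all downstream of the start, are shown whole to let a reader compare them. They are given in GRCm38 and on the strand of the gene, with each CpG in capitals. The peak not shown, at Zfp84, was centred 427 bp upstream of the start. Its GC content was 45.5% in the 200 bp around the centre, below that of the 3 shown. The peaks of Zfp74 at chr7:29953625-29953833 (minus strand), Zfp382 at chr7:30122016-30122224 (plus strand) and Zfp146 at chr7:30169436-30169644 (minus strand) lay in introns.
Zfp74: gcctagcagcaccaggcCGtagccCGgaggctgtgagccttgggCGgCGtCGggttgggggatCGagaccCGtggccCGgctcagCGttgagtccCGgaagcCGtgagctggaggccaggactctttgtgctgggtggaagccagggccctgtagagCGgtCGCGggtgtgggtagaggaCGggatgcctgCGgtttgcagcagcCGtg
Zfp382: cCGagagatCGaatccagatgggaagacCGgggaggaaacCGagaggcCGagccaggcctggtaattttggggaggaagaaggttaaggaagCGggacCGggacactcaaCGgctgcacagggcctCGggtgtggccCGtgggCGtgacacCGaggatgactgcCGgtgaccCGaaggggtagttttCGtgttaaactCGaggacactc
Zfp146: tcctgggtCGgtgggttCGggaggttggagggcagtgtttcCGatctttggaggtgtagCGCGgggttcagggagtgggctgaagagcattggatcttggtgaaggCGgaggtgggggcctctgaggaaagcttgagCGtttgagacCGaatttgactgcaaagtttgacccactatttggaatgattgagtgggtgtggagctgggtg
The Zfp74 peak held 17 CpG and was 68.9% GC, and the Zfp382 peak held 16 CpG and was 60.8% GC. The Zfp146 peak held 8 CpG at 56.0% GC.

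In a different class of peaks, sequence of the tandem repeat TCAT stood within the peak. These are shown as a form of site met inside Zfp genes. No peak within 1 kb of a start of a Zfp gene held such a tract, and few did near starts of all genes, at 2.74% of OLG and 2.55% of OPC peaks. Those shown are OPC peaks in introns, in GRCm38 and on the strand of the gene, with the tract in capitals. On the strand of the gene the tract may read as TCAT in any phase or as its complement ATGA. The peaks were at chr1:74584028-74584236 in Zfp142 (minus strand), at chr16:33409223-33409431 in Zfp148 (plus strand), at chr6:83942165-83942373 in Zfp638 (plus strand) and at chr8:87703925-87704133 in Zfp423 (minus strand).
Zfp142: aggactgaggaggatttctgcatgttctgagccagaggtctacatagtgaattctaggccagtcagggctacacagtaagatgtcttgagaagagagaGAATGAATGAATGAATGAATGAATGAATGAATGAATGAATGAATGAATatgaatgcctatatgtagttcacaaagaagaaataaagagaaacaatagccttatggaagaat
Zfp148: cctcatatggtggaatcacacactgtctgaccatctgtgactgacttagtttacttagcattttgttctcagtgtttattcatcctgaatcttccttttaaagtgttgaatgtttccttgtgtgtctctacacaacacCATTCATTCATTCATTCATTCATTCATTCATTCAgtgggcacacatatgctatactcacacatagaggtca
Zfp638: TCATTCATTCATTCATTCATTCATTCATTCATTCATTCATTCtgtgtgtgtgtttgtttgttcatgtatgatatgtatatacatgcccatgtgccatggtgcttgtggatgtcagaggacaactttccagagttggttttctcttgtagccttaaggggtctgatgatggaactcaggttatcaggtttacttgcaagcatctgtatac
Zfp423: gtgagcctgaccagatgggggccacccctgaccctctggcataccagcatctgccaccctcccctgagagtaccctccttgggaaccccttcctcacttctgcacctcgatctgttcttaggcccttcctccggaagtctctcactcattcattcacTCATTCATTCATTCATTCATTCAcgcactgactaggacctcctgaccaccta

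Near starts, the Zfp genes had an OLG peak within 1 kb in 2.56% of members and an OPC peak in 12%. In OLG, 6 of 234 members (2.56%, interval 0.947 to 5.50) had a peak centre within 1 kb of a start, against 882 of all protein-coding genes (4.07%). Within 10 kb there were 17 members (7.26%, 4.29 to 11.4), against 1404 of all genes (6.48%). In OPC, 28 members (12%, 8.10 to 16.8) had a peak centre within 1 kb, against 1780 of all genes (8.21%). Within 10 kb there were 40 members (17.1%, 12.5 to 22.5), against 2764 of all genes (12.8%). Each of the 4 intervals of the members held the share of all genes, so none of these shares lay apart from the background by more than counting error. In either list within 10 kb there were 48 members (20.5%), against 3710 of all genes (17.1%), which left 186 members without a peak.

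**Figure D1:**
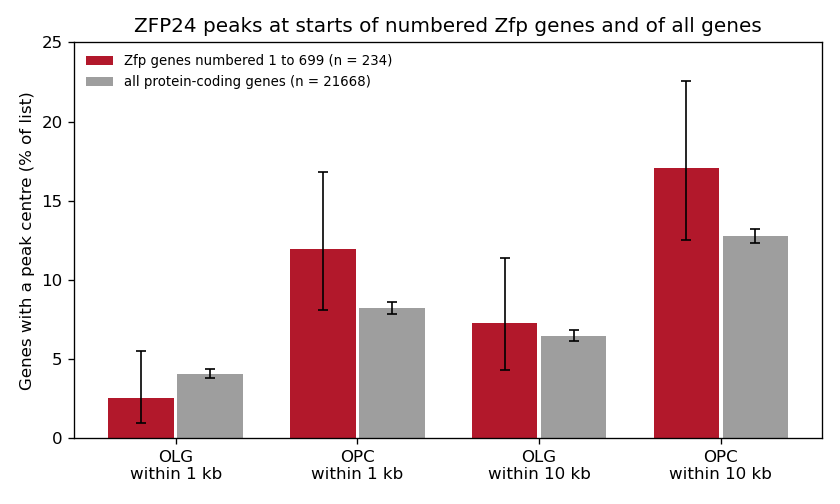
Share of genes with a ZFP24 peak centre near a start, in percent, for the 234 numbered Zfp genes (red) and all 21668 protein-coding genes (grey), by list and window; bars start at 0 and lines are exact 95% intervals for counting error. In OPC the members' bars stand at 12% and 17.1% above grey bars at 8.21% and 12.8%, and in OLG at 2.56% and 7.26% beside 4.07% and 6.48%, with every red interval spanning its grey bar.

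At wider distances the share of Zfp genes with an OPC peak also stood above that of all genes, and the OLG shares of both crossed. The nearest OLG peak lay at a median of 383 kb from a start of a Zfp gene, against 335 kb for all protein-coding genes. The nearest OPC peak lay at a median of 93.2 kb, against 129 kb for all genes. Within 50 kb, 40 members (17.1%) had an OLG peak, against 15.1% of all genes, and 89 members (38.0%) had an OPC peak, against 29.2% of all genes. Wide windows overlap between neighbouring genes, so that 1 peak can be counted for several members of a row.

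**Figure D2:**
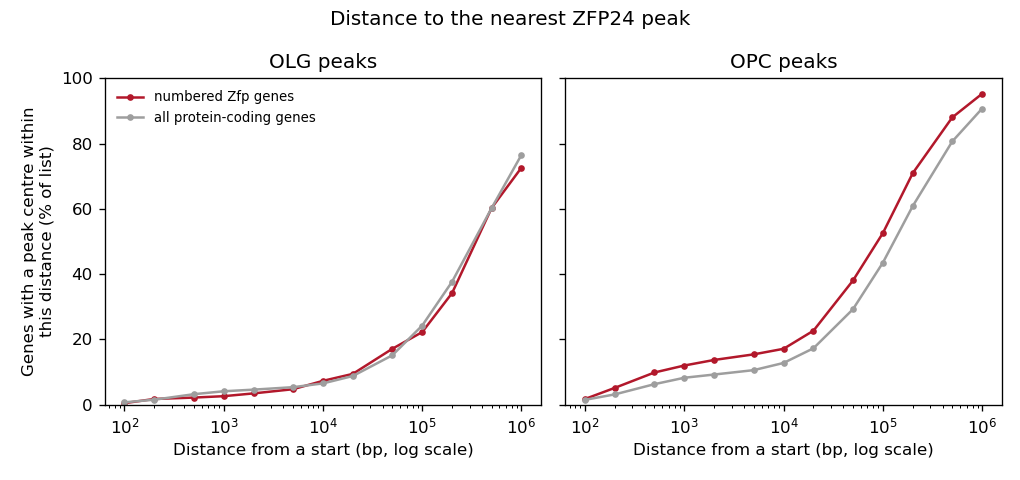
Cumulative share of genes (percent) with a ZFP24 peak centre within a given distance of a start (bp, log scale), for the numbered Zfp genes (red) and all protein-coding genes (grey), with OLG peaks on the left and OPC peaks on the right. The red OPC curve runs above the grey one, at 38.0% against 29.2% at 50 kb, while the OLG curves cross and stand at 17.1% and 15.1% there.

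The 6 members with an OLG peak within 1 kb were Zfp319, Zfp532, Zfp668, Zfp369, Zfp397 and Zfp41. The peak centre lay 100 bp upstream of the start of Zfp319, 113 bp upstream of a start of Zfp532 and 133 bp upstream of a start of Zfp668. It lay 138 bp downstream of the start of Zfp369, in the 5' UTR, 389 bp downstream in an intron of Zfp397, and 754 bp upstream of Zfp41. Human ZNF532 is known as a fusion partner of NUT in NUT carcinoma, and human ZNF668 has been tied to the DNA damage response. Of these 6 nearest peaks, 2 were downstream of the start, against 634 of 882 (71.9%) for all genes with such a peak, with an interval for the members that ran between 4.33% and 77.7%. The median distance was 135.5 bp for the members and 281.5 bp for all genes.

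The 28 members with an OPC peak within 1 kb covered a range of 7 to 878 bp from the start. The 2 nearest were Zfp148, at 7 bp downstream, and Zfp334, at 14 bp downstream, both in the 5' UTR. Zfp148, also called ZBP-89, is a Krüppel-type factor that binds GC-rich promoters. Next came Zfp532 at 41 bp upstream, Zfp329 at 95 bp upstream, Zfp560 at 116 bp upstream, Zfp12 at 127 bp downstream and Zfp668 at 128 bp upstream. From there a run of members had the peak centre just downstream of a start. Zfp1 had it at 139 bp downstream, Zfp276 at 173 bp, Zfp263 at 177 bp, Zfp382 at 178 bp, Zfp146 at 187 bp, Zfp324 at 205 bp and Zfp330 at 230 bp. Zfp263 is known to carry a SCAN and a KRAB domain beside its fingers, but its protein did not match the KRAB pattern searched and is counted below without it. The run went on with Zfp57 at 291 bp, Zfp68 at 317 bp, Zfp428 at 324 bp, Zfp93 at 328 bp, Zfp39 at 355 bp and Zfp74 at 358 bp downstream. The starts used for Zfp57 and Zfp93 lay farther inside the gene. Their peak centres were at 37003329 and 24271896, and the annotated 5' ends at 37001163 and 24270420. Zfp57 is a KRAB factor known for keeping DNA methylation at imprinted genes in the early embryo.

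The remaining 8 of the 28 lay further out. Zfp84 had its peak centre at 427 bp upstream, Zfp319 at 480 bp downstream, Zfp277 at 496 bp upstream and Zfp638 at 617 bp downstream. Zfp638 is a nuclear protein known for silencing unintegrated retroviral DNA together with the HUSH complex. Zfp408 had its peak centre at 726 bp upstream, Zfp472 at 735 bp upstream, Zfp516 at 738 bp upstream and Zfp462 at 878 bp downstream. The starts used for Zfp638, Zfp516 and Zfp462 lay inside the gene. For Zfp638 the peak centre was at 83915009 and the annotated 5' end at 83867109. Zfp516 is known as an activator of Ucp1 in brown fat. For 3 of these 28 genes the peak was nearer to the start of a neighbouring gene, namely Vps9d1 at 20 bp for the Zfp276 peak, Dock4 at 62 bp for the Zfp277 peak and Arhgap1 at 295 bp for the Zfp408 peak.

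The nearest OPC peak was downstream of the start in 19 of 28 members (67.9%, 47.6 to 84.1), against 1158 of 1780 for all genes (65.1%). Of the 28, 14 (50%) had it between 100 and 400 bp downstream, against 33.7% for all genes. The median distance was 260.5 bp for the members and 259 bp for all genes.

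**Figure D3:**
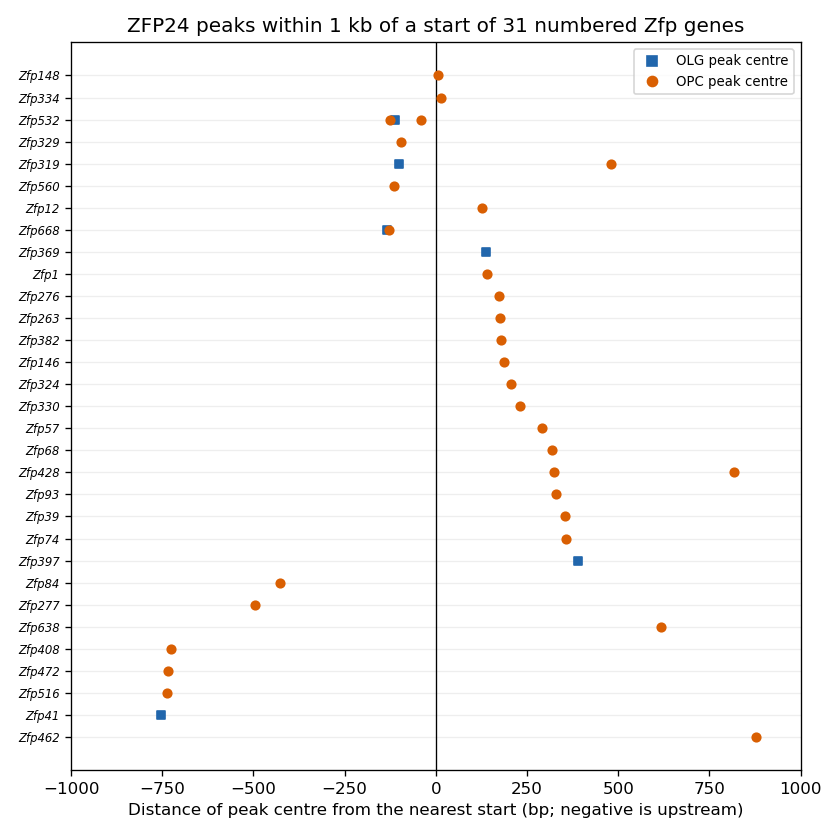
Position of every ZFP24 peak centre within 1 kb of the nearest start (bp, negative is upstream) for the 31 numbered Zfp genes that had one, in order of the nearest peak; blue squares are OLG and orange circles OPC. Most orange circles stand between 0 and 400 bp downstream, and the blue squares stand at 100 to 754 bp on both sides.

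The last gene inside and the first gene outside each window were as follows. In OLG they were Zfp41 at 754 bp and Zfp521 at 1416 bp for 1 kb, and Zfp367 at 9787 bp and Zfp423 at 10030 bp for 10 kb. In OPC they were Zfp462 at 878 bp and Zfp664 at 1019 bp for 1 kb, and Zfp580 at 9839 bp and Zfp663 at 10665 bp for 10 kb.

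Between 1 and 10 kb, OLG peaks were nearest at Zfp521 (1416 bp downstream, intron), Zfp646 (1922 bp upstream), Zfp579 (2662 bp downstream), Zfp1 (3918 bp downstream, intron) and Zfp324 (4643 bp downstream, coding exon). Zfp521 is a many-fingered factor known for holding back early B-cell factors and for roles in neural and blood progenitors. The other 6 were Zfp219 (5121 bp), Zfp658 (5201 bp), Zfp334 (6616 bp), Zfp207 (6735 bp), Zfp446 (7102 bp) and Zfp367 (9787 bp). Zfp219 is known as a partner of Sox9 in cartilage, and Zfp207, or BuGZ, loads Bub3 onto kinetochores. The peak counted for Zfp334 lay in the 3' UTR of Ocstamp and that counted for Zfp367 was 1120 bp from a start of Habp4.

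Between 1 and 10 kb, OPC peaks were nearest at Zfp664 (1019 bp upstream), Zfp41 (1377 bp upstream), Zfp91 (1383 bp downstream), Zfp646 (1927 bp upstream) and Zfp438 (3780 bp downstream). Zfp91 is an E3 ubiquitin ligase of noncanonical NF-kB signalling. The other 7 were Zfp142 (3893 bp), Zfp46 (3981 bp), Zfp574 (4455 bp), Zfp398 (5296 bp), Zfp207 (5360 bp), Zfp609 (7147 bp) and Zfp580 (9839 bp). Zfp609 is known to link Nipbl and Integrator in neural progenitors. Several of these peaks stood at the start of another gene, with Grik5 at 458 bp from the Zfp574 peak, Zfp786 at 499 bp from the Zfp398 peak, 5730455P16Rik at 96 bp from the Zfp207 peak and U2af2 at 315 bp from the Zfp580 peak. The Zfp574 peak, at chr7:25072646-25072854, also stood just downstream of the annotated 5' end of Zfp574 itself, at 25072567. Its 4455 bp run to a protein-coding start farther inside the gene. In all, 15 different OLG peaks and 42 different OPC peaks lay within 10 kb of a member, and a member was the nearest gene for 12 of the OLG and 34 of the OPC peaks. Of the 15 OLG peaks, 6 were in introns, 4 intergenic, 2 in a 5' UTR, 2 in a coding exon and 1 in a 3' UTR. Of the 42 OPC peaks, 26 were in introns, 8 intergenic, 6 in a 5' UTR and 2 in a coding exon. These classes used protein-coding transcripts only. The Zfp579 OLG peak and the Zfp574 OPC peak, inside those genes but outside such transcripts, were thus counted as intergenic.

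Both lists had a peak within 10 kb of a start of 9 members, namely Zfp1, Zfp207, Zfp319, Zfp324, Zfp334, Zfp41, Zfp532, Zfp646 and Zfp668. That was 3.85% of all members, 52.9% of the 17 OLG members and 22.5% of the 40 OPC members. For all genes it was 458, or 2.11% of all, 32.6% of the OLG and 16.6% of the OPC genes. Zfp646 and Zfp668 were counted by the same peaks, and the difference from all genes was not tested. A further 8 members had OLG peaks alone and 31 had OPC peaks alone, against 946 and 2306 of the 21668 protein-coding genes. Within 1 kb, 3 members (1.28%) were in both lists (Zfp319, Zfp532 and Zfp668), against 237 of all genes (1.09%). There 3 members were in OLG alone and 25 in OPC alone, against 645 and 1543 of all genes.

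Overlapping peaks of both lists, by at least 1 bp, lay within 10 kb of 3 members (1.28%), against 229 of all genes (1.06%). The OLG and OPC peaks at Zfp668, chr7:127875669-127875889 and chr7:127875670-127875878, had their centres 133 and 128 bp upstream of a start and lay in the 5' UTR of a longer transcript of the gene. The same pair of peaks was counted for Zfp646, at 1922 and 1927 bp upstream, a gene on the other strand whose annotated 5' end lay 607 bp from that of Zfp668. Those 2 distances run to a protein-coding start inside Zfp646. The annotated 5' end of Zfp646, at 127876221, stood nearer to the peak centres, at 127875779 in OLG and 127875774 in OPC. At Zfp532 the overlapping OLG and OPC peak centres lay 113 and 126 bp upstream of a start. A further OPC peak lay 41 bp upstream of another start of that gene. Thus 2 places in the genome made up the 3 members. Of the 15 OLG peaks near members, 2 overlapped an OPC peak (13.3%), against 254 of 1752 in the whole OLG list (14.5%). Of the 42 OPC peaks near members, 2 overlapped an OLG peak (4.76%), against 254 of 4643 in the whole OPC list (5.47%).

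In the other 6 members with peaks in both lists, the peaks were at different places. At Zfp319 the OLG peak was centred 100 bp upstream and the OPC peak 480 bp downstream of the start. At Zfp1 the OLG peak was 3918 bp and the OPC peak 139 bp downstream, and at Zfp324 the OLG peak was 4643 bp and the OPC peak 205 bp downstream. At Zfp334 the OLG peak was 6616 bp upstream and the OPC peak 14 bp downstream. Both were upstream at Zfp41, at 754 bp in OLG and 1377 bp in OPC, and at Zfp207, at 6735 bp in OLG and 5360 bp in OPC.

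Members whose annotated 5' end lay within 200 kb of that of the next member were joined into rows, and rows of at least 3 were called clusters. There were 14 clusters with 78 members, and 156 members stood outside them. In OLG, 0 clustered members (0%, 0 to 4.62) had a peak within 1 kb, against 6 outside clusters (3.85%, 1.42 to 8.18). Within 10 kb there were 3 clustered members (3.85%, 0.80 to 10.8), against 14 outside clusters (8.97%, 4.99 to 14.6). In OPC, 10 clustered members (12.8%, 6.32 to 22.3) had a peak within 1 kb, against 18 outside clusters (11.5%, 6.98 to 17.6), and within 10 kb the counts were 12 (15.4%) and 28 (17.9%). Each pair of intervals overlapped, and the difference was not tested. The median GC content in the 1000 bp around the 5' end was 52.9% for clustered members and 56.9% outside clusters.

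Members with a peak stood in 7 of the 14 clusters. The row on chromosome 7 from 29768552 to 30169750 held 13 members, of which Zfp84, Zfp74, Zfp382 and Zfp146 had an OPC peak within 1 kb, with those of Zfp74, Zfp382 and Zfp146 printed above. Zfp382 and Zfp146 were direct neighbours, with 5' ends 47808 bp apart and separate peaks at 178 and 187 bp downstream. The other 9 genes of that row had no peak within 10 kb in either list, among them Zfp568, a KRAB factor known for repressing a placental form of Igf2. The row from 24081924 to 24587641 held 12 members, of which Zfp93 and Zfp428 had an OPC peak within 1 kb. Zfp428 had 2, at 324 and 818 bp downstream, and was with Zfp148 and Zfp532 among the members that had 2 OPC peaks within 10 kb. In the row from 12804977 to 12985714, 3 of 5 members were bound. Zfp329 and Zfp324 had OPC peaks within 1 kb, and 1 OLG peak in a coding exon of Zfp324 was counted for Zfp324 and for Zfp446, whose 5' ends were 12010 bp apart.

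The remaining rows held fewer peaks. On chromosome 7 between 4915217 and 5053723, Zfp579 had an OLG peak and Zfp580 an OPC peak within 10 kb. Zfp398 on chromosome 6, Zfp560 on chromosome 9 and Zfp263 on chromosome 16 were each the only member of a row with a peak, all in OPC. No peak lay within 10 kb of a member's start in the other 7 rows, among them the 9 members on chromosome 13 from 67194506 to 67526177 and the 6 members on chromosome 17 from 21383748 to 21769342. Zfp genes that the rule does not take were not counted in these rows, so a row without a member's peak can still hold peaks. In the chromosome 7 row from 127233061 to 127615797, OPC peaks lay 599 bp from a start of Zfp747 and 306 bp from a start of Zfp764. Neither gene is a member. On chromosome 13, before the row of 9 members, Zfp712 and Zfp708, also not members, had OPC peaks 225 and 9605 bp from a start. Of 85 pairs of neighbouring members within 200 kb, both genes were bound within 10 kb in 2 pairs in OLG and 2 pairs in OPC. Neighbouring pairs of all protein-coding genes were not counted, so it is not known whether these pairs are many or few. The bound pairs of members were Zfp324 with Zfp446 in OLG, Zfp382 with Zfp146 in OPC, and Zfp646 with Zfp668 in both. In all but the Zfp382 pair the genes were counted by 1 common peak.

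**Figure D4:**
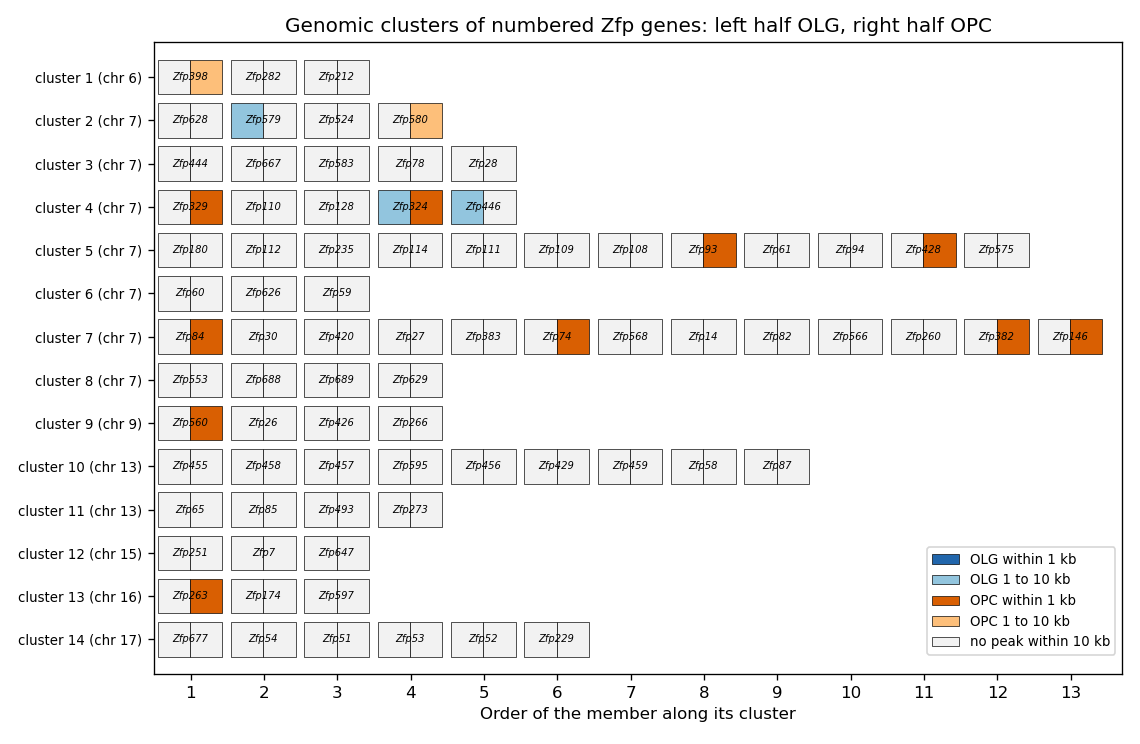
The 14 genomic clusters of numbered Zfp genes, with each member as a box in its order along the chromosome; the left part of a box is OLG (blue) and the right part OPC (orange), dark within 1 kb and light within 1 to 10 kb. In cluster 7 on chromosome 7, 4 of 13 boxes are dark orange, no box has a dark blue part, and 7 rows are blank.

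Protein features were set against both lists. Of the 108 members with a KRAB pattern, 5 (4.63%, 1.52 to 10.5) had an OLG peak within 10 kb, against 12 of 126 without it (9.52%, 5.02 to 16). In OPC there were 15 with the pattern (13.9%, 7.99 to 21.9), against 25 without it (19.8%, 13.3 to 27.9). Within 1 kb in OPC the counts were 13 (12%) and 15 (11.9%). Within 1 kb in OLG they were 1 (0.926%) and 5 (3.97%). Each pair of intervals overlapped. The median GC content at the 5' end was 52.2% for genes with the pattern and 59.5% for those without. The 48 members with a peak within 10 kb had a median of 9 fingers, against 11 for the 186 without a peak.

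GC content moved with the presence of a peak. The median at the 5' end was 57.3% for the 48 members with a peak and 54.6% for the 186 without, and 55.0% for all members against 54.9% for all protein-coding genes. All genes were split at 50.5% and 58.8% GC into a lower, a middle and an upper class of like size. In the lower class, 3 of 64 members (4.69%) had an OLG peak within 10 kb, against 2.30% of all genes of that class. In the middle class there were 6 of 94 (6.38%), against 6.23%, and in the upper class 8 of 76 (10.5%), against 10.9%. In OPC the lower class held 5 (7.81%), against 5.15%, the middle class 18 (19.1%), against 13.9%, and the upper class 17 (22.4%), against 19.2%. Within 1 kb in OPC, 15 members of the middle class had a peak (16%, 9.22 to 25), against 8.42% of all genes of that class, which the interval left out. It was the only one of 12 intervals, over 3 classes, 2 windows and 2 lists, that did so. There the lower class held 4 (6.25%, 1.73 to 15.2), against 2.40%, and the upper class 9 (11.8%), against 13.8%. Within 1 kb in OLG, 1 member of the lower class had a peak (1.56%), against 1.11% of all genes, 1 of the middle class (1.06%), against 3.11%, and 4 of the upper class (5.26%), against 7.94%. The part of GC content in the peaks was not tested.

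**Figure D5:**
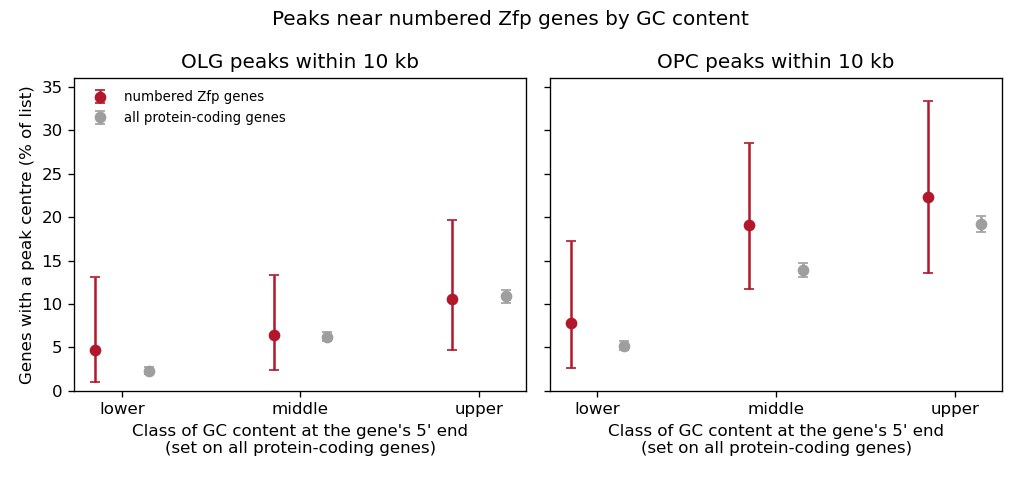
Share of genes (percent) with a ZFP24 peak centre within 10 kb of a start, by class of GC content around the 5' end, for the numbered Zfp genes (red) and all protein-coding genes (grey); lines are exact 95% intervals for counting error, with OLG on the left and OPC on the right. Both colours climb with GC content, in OPC with 7.81%, 19.1% and 22.4% for the members against 5.15%, 13.9% and 19.2%.

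Short letters known as binding sites of promoter factors were searched on both strands in the 200 bp around the centres of peaks within 1 kb of a start. A match here describes the letters and not a site. The GC box GGGCGG stood in 2 of 6 OLG peaks of members (33.3%), against 41.1% of the 838 OLG peaks within 1 kb of any gene. In OPC it stood in 6 of 30 peaks of members (20.0%), against 31.4% of 1646. The E-box CACGTG stood in 1 of 6 OLG peaks of members, against 3.34%, and in 1 of 30 OPC peaks, against 4.37%. The ETS letters CCGGAAG and the YY1 core AAGATGG stood in 1 OPC peak of members each, against 5.83% and 4.07%, and in 0 OLG peaks of members, against 5.37% and 4.30%. The CRE letters TGACGTCA were in 0 member peaks of either list, against 0.597% in OLG and 0.182% in OPC. TCAT doubled (TCATTCAT) was in 0 of 6 and 0 of 30 member peaks, against 3.34% in OLG and 3.71% in OPC.

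The tandem TCAT tracts, of at least 12 bases within the 200 bp around a peak centre, were few near all genes. In OLG, 0 of 15 peaks near members held one (exact interval to 21.8%), against 100 of 1752 in the whole list (5.71%) and 48 of 1179 among peaks within 10 kb of any gene (4.07%). In OPC it was 3 of 42 (7.14%, 1.5 to 19.5), against 567 of 4643 in the whole list (12.2%) and 155 of 2364 within 10 kb of any gene (6.56%). Within 1 kb it was 0 of 6 in OLG and 0 of 30 in OPC, against 2.74% and 2.55%. The 3 tracts within 10 kb lay in introns of Zfp142, Zfp438 and Zfp148. Zfp142, whose protein had the most finger matches of all members at 37, held a tract of 48 bases, 3893 bp from a start. Zfp438 held 35 bases at 3780 bp and Zfp148 held 34 bases at 8882 bp. Zfp148 thus had an OPC peak with a tract and another at its start without one.

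Farther inside genes, OPC peaks with tracts of 43 bases in Zfp638, 33 bases in Zfp521 and 23 bases in Zfp423 lay 13414, 38350 and 100410 bp from a start. In member genes or within 10 kb of a member's start there were 82 TCAT tracts of at least 12 bases, of which 6 (7.32%, 2.73 to 15.2) were at an OPC peak and 0 at an OLG peak. Around all protein-coding genes the same count was 8588 tracts, with 5.87% at an OPC peak and 1.08% at an OLG peak. Of tracts of at least 32 bases, 5 of 8 near members (62.5%, 24.5 to 91.5) were at an OPC peak, against 166 of 678 (24.5%) near all genes. That interval began at the share of all genes. Of tracts of at least 24 bases it was 5 of 20 (25%, 8.66 to 49.1), against 16.1%.

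Peaks in coding exons of members were few. The OLG peaks in Zfp219 and Zfp324 each touched 2 of 9 fingers of the protein, with 111 and 74 of their 221 bases in finger codons. The centres lay at residue 70 of 726 in Zfp219 and residue 287 of 583 in Zfp324. The OPC peaks in Zfp46 and Zfp316 touched 0 of 12 and 0 of 14 fingers. An OPC peak in Zfp423, 22265 bp from a start and centred at residue 514 of 1292, touched 2 of 27 fingers with 132 of its 209 bases. Zfp423 is a relative of Zfp521 known for binding early B-cell factors and for roles in the cerebellum and in fat cells. The peak at chr8:87782070-87782278 is printed as the one with the most finger sequence, on the strand of the gene (minus) in GRCm38, with finger codons in capitals.
Zfp423 coding exon: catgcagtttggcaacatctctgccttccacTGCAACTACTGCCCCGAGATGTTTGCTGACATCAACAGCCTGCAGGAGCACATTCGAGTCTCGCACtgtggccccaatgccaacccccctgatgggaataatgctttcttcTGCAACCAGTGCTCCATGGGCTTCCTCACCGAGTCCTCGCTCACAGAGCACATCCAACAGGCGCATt
Other OPC peaks inside member genes but beyond 10 kb of a start lay in Zfp366 (22251 bp), Zfp521 (209910 bp), Zfp608 (66397 bp), Zfp664 (35539 bp) and Zfp617 (14043 bp). The Zfp617 peak, at chr8:71908705-71908913, stood just downstream of the gene's annotated 5' end at 71908635. It was outside the protein-coding transcripts whose starts were used, so Zfp617 was counted without a peak.

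Related genes gave the setting. Of 128 Zfp genes numbered 700 or more, 3 (2.34%, 0.486 to 6.70) had an OLG peak and 12 (9.38%, 4.94 to 15.8) an OPC peak within 10 kb, against 7.26% and 17.1% of the members. Of 32 Zfp genes with letters after the name, 4 (12.5%, 3.51 to 29.0) and 9 (28.1%, 13.7 to 46.7) did. That OPC interval left out the 12.8% of all genes. Of 41 Zbtb genes, which pair fingers with a BTB domain, 6 (14.6%, 5.57 to 29.2) had an OLG peak and 5 (12.2%, 4.08 to 26.2) an OPC peak within 10 kb, against 6.48% and 12.8% of all genes. Within 1 kb, 5 Zbtb genes (12.2%, 4.08 to 26.2) had an OLG peak and 0 (0 to 8.60) an OPC peak, against 4.07% and 8.21% of all genes. That OLG interval began just above the share of all genes. The 27 Zscan and Zkscan genes had 0 OLG peaks within 10 kb, while 4 (14.8%) had an OPC peak. No difference between these lists was tested, and they hold few genes.

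Of 16 genes for the repressive machinery of KRAB proteins, 1 (6.25%) had an OLG peak and 4 (25%, 7.27 to 52.4) an OPC peak within 10 kb, against a background of 6.48% and 12.8%. Trim28, the KRAB co-repressor itself, had its nearest OPC peak 874 bp from a start and its nearest OLG peak at 53406 bp. Setdb1, the H3K9 methyltransferase brought by TRIM28, had none within 10 kb, with the nearest at 41656 bp in OLG and 41810 bp in OPC. Cbx5, which encodes heterochromatin protein HP1 alpha, had an OPC peak at 705 bp, and Ehmt2, the methyltransferase G9a, had an OLG peak at 620 bp and an OPC peak at 308 bp. Hdac1 had an OPC peak at 7304 bp. Of the 3 genes that the symbol rule left out, Zfp488 had an OPC peak at 781 bp and Zfp536 at 9085 bp, and neither had an OLG peak within 10 kb. At Zfp24 itself the nearest peaks were 65226 bp away in OLG and 184531 bp in OPC.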

How the data were processed

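ZFP24 ChIP-seq libraries were sequenced single-end with 75 nt reads, per the labels. The authors' deposited lists hold chromosome, start, end and a peak name. Per the submitters' processing notes, BWA (no version given), HOMER 4.8.3 and mm10 were used, while the options and threshold of the calling are not given in these sources. Reads of the null libraries and the input were not analysed here.

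A start was the 5' end of a protein-coding transcript of GENCODE M21 basic. Distances ran from peak centres, positions are 1-based, and 0 peaks passed a chromosome end of GRCm38. Proteins were translated from the annotated coding sequence, and fingers (C-x2to4-C-x12-H-x3to5-H) and KRAB boxes were found by pattern, so divergent copies can be missed. TCAT tracts had at least 12 bases of tandem repeat, on either strand. Sequences came from the RefSeq GRCm38 genome. Python 3.11.15, numpy 2.4.6, scipy 1.17.1, pandas 2.3.3 and pysam 0.24.0 were used. The search for the nearest peak and the search for TCAT tracts were tested on simulated data, and the other steps were not.

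Shares were set beside all protein-coding genes with exact intervals, and no test was made. The members and lists were chosen with earlier results of these data known. Bound members within 1 kb, members in both lists or in bound pairs, those with tracts or several peaks, and those between 1 and 10 kb were named.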

Additional observations from a re-analysis of the deposited data

How the results depend on the processing

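Of 40 other settings, 35 gave a count within 1.5 times the one reported. Those that took Zfp numbers of any size counted over more genes, so a like count there went with a lower share. The added genes, numbered 700 or more, had a peak within 10 kb in 2.34% (OLG) and 9.38% (OPC). With other windows in place of 10 kb, OLG peaks reached 11 members within 5 kb (4.70%, against 5.33% of all protein-coding genes) and 40 within 50 kb (17.1%, against 15.1%), where 17 were reported. OPC peaks reached 89 members within 50 kb (38.0%, against 29.2%), where 40 were reported. With the lower-numbered part of the peak names on each chromosome, OPC peaks reached 16 members within 1 kb (6.84%, against 5.21%) and 23 within 10 kb (9.83%, against 7.71%), where 28 and 40 were reported. Each of these follows from fewer peaks or another window, and what the number in a peak name stands for is not stated. In OLG that part of the names gave 6 members within 1 kb (2.56%, against 2.50%) and 14 within 10 kb (5.98%, against 3.74%), where 2.56% against 4.07% and 7.26% against 6.48% were reported. The share of members in OLG thus stood below or above that of all genes depending on the window and on the part of the list. The setting that keeps the upper part of a list by peak value was not run, because the lists hold no value. No paired analysis was possible because each cell type has 1 list and no result comes from a test.

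The depth and threshold behind each list are unknown, and the length of a list depends on them. A gene without a peak is one with no peak in these lists, not one shown to be unbound. Mappability of near-identical Zfp gene copies was not measured.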
